A study of Mus musculus with 32 samples.

Results

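The glucose response of wild-type mouse islets was described from 16 of the 32 RNA-seq libraries of a study on islet amyloid: 8 libraries of islets kept at 16.7 mM glucose and 8 of islets kept at 11.1 mM. The libraries were chosen by their labels alone, as those of the genotype called mIAPP, and no measured value entered the choice. These islets came from 10-week-old mice of both sexes on a C57BL/6NHsd background, which carried the normal mouse Iapp gene. They were wild-type littermates of mice (hIAPP) in which homologous recombination had put human IAPP in the place of mouse Iapp. All islets were isolated with collagenase, handpicked and left overnight in medium with 11.1 mM glucose. They were then cultured for 48 h at 11.1 or 16.7 mM glucose, so the lower level continued the recovery medium and no group stood at a fasting level. Each of 8 separate experiment sets gave 1 library per genotype and glucose level, and each contrast was fitted within sets. The number of mice behind a set is not given. The p-values measure how far the differences between the 4 groups varied from set to set.

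Beta cells, the insulin-secreting majority of a mouse islet, take up glucose through the transporter Slc2a2 and break it down. The ATP that follows closes a potassium channel, calcium enters, and granules holding insulin and its companion peptide Iapp fuse with the membrane. Glucose also acts on transcription, through calcium and cAMP signals that reach CREB and activity genes such as Nr4a1, and through the sugar-sensing factor ChREBP (gene Mlxipl), whose best known target is Txnip. Proinsulin is folded in the endoplasmic reticulum (ER), passes the Golgi and is cut by the convertases Pcsk1 and Pcsk2. A heavy load of it engages the unfolded protein response, with its sensors Atf6, Ern1 and Eif2ak3.

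The 16 libraries held 16.1 to 37.1 M counts (M, 1e6), with means of 31.3 ± 4.53 M (SD, n = 8) at 16.7 mM and 24.6 ± 4.11 M at 11.1 mM, and the library at 16.7 mM was the larger in 7 of 8 sets. The insulin genes Ins1 and Ins2 took 19.4 ± 2.35% and 20.2 ± 5.53% of the counts at 16.7 and 11.1 mM, whereas the digestive enzymes and other markers of acinar cells summed to 99.5 to 542 CPM at 16.7 mM and 99.4 to 365 CPM at 11.1 mM (CPM, counts per 1e6 counts, scaled by TMM). The libraries differed widely in their share of mitochondrially encoded RNA, from 2.84 to 37% at 16.7 mM and from 3.49 to 34.7% at 11.1 mM, and this share was lower at 16.7 mM in every set but 3 and 7. Both set 7 libraries were the highest of their groups, and 8 libraries (5 at 16.7 mM and 3 at 11.1 mM) had a share under 10%. Those 8 are called the libraries under 10%. They were those of sets 1 to 5 at 16.7 mM and of sets 3, 4 and 5 at 11.1 mM. The fit behind the results given for them also held the hIAPP libraries with such a share, 8 at 16.7 mM and 2 at 11.1 mM. Y-linked genes summed to 120 CPM at 16.7 mM and 35.9 at 11.1 mM in set 5. In set 3 they summed to 156 and 84.2, so the pairs of sets 3 and 5 differed in the share of male tissue. Both pairs are among the libraries under 10%. In those, the Y-linked gene Ddx3y was higher at 16.7 mM (log2 change 1.62, edgeR adjusted p = 0.00842). What part sex has in the results from those libraries was not tested.

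A large share of the transcriptome differed between the glucose levels. In the edgeR quasi-likelihood test, blocked by experiment set and called at an adjusted p under 0.05, 7805 of 16428 genes (47.5%) differed between 16.7 and 11.1 mM, 4083 higher (24.9%) and 3722 lower (22.7%). The shares of 24.9% and 22.7% are the background for the counts of list members below. Most changes were small: 583 of the higher and 584 of the lower genes passed 2-fold, and 86 and 21 passed 4-fold. The median log2 fold change was 0.55 among the higher genes, -0.59 among the lower genes and -0.03 over all genes tested. Of the called genes, 2524 were higher and 1807 lower at 16.7 mM in 8 of 8 sets (15.6% and 11.3% of all genes had such a run, called or not). For 434 genes every library at 16.7 mM stood above every library at 11.1 mM, and for 231 the reverse held (2.64% and 1.41% of the genes tested). Principal components were computed for the 16 libraries. The library at 16.7 mM lay lower than its partner on component 1 (55.2% of the variance) in 8 of 8 sets. On component 2 (15.2%) it lay higher in 8 of 8 sets. The groups overlapped on component 1 (-69.9 to 73.7 at 16.7 mM, -41.3 to 106 at 11.1 mM). The highest scores on it, 106 and 73.7, were those of set 7, with mitochondrial shares of 34.7 and 37%. The lowest, -69.9, was that of the library with the lowest share, 2.84%. What part that share has in component 1 was not tested. These are bulk measurements of whole islets, in which fewer cells of a type and less RNA per cell cannot be told apart.

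The insulin genes themselves did not pass the threshold. Ins2 ranged from 112000 to 166000 CPM (median 134000) at 16.7 mM and from 106000 to 236000 CPM (median 129000) at 11.1 mM, groups that overlapped almost fully. Its medians and its fitted change differed in sign. The log2 fold change was -0.11 ± 0.14 (SE, adjusted p = 0.529), and that of Ins1 was -0.03 ± 0.14 (adjusted p = 0.89). Iapp (ENSMUSG00000041681, chr6:142298423-142303961, GRCm38), the amyloid peptide packed with insulin, ranged from 16900 to 30400 CPM (median 24400) at 16.7 mM and from 8650 to 15600 CPM (median 11700) at 11.1 mM. Every library at 16.7 mM lay above every library at 11.1 mM. Its mean was 24300 ± 4170 against 11900 ± 2150 CPM (SD, n = 8 each), a rise of 1.02 ± 0.11 on the log2 scale (adjusted p = 3.26e-08), higher in 8 of 8 sets.

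Most genes of hormone processing rose, in contrast to insulin. Of 24 members of the insulin granule list, 13 were higher and 6 lower (24.9% and 22.7% of all genes), with a median of 0.66. Pcsk1 (ENSMUSG00000021587, chr13:75089826-75134861), the convertase that makes the early cuts in proinsulin, ranged from 253 to 1430 CPM (median 790) at 16.7 mM and from 60.5 to 487 CPM (median 186) at 11.1 mM. The groups overlapped only through set 7, which had the lowest library at both glucose levels (253 and 60.5 CPM). Pcsk1 rose by 2.22 ± 0.25 on the log2 scale (adjusted p = 1.59e-07), 4.65-fold, whereas Pcsk2, the other convertase, rose by 0.68 ± 0.12 (not past the threshold in the libraries under 10%). The inhibitor of Pcsk1, Pcsk1n, fell by 0.77 (1030 against 1740 CPM). Carboxypeptidase E (Cpe), which trims the cut peptides, rose by 0.75 ± 0.08.

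Granins, the acidic proteins that help granules form, moved unequally. Vgf (ENSMUSG00000037428, chr5:137026392-137033351), a granin-like peptide precursor, ranged from 172 to 398 CPM (median 250) at 16.7 mM and from 19.3 to 73.2 CPM (median 31.5) at 11.1 mM. There was no overlap, and the rise of 2.75 ± 0.19 (adjusted p = 3.32e-11) was among the 15 largest of genes with a mean of at least 5 CPM. Scg3 rose by 1.51 ± 0.11, Scg2 by 1.52 ± 0.21 and Chgb by 1.19 ± 0.15, all in 8 of 8 sets. Chga changed by 0.25 ± 0.15, which did not pass (adjusted p = 0.168). The members that fell were Nnat (-1.38), Pcsk1n, Slc30a8 (-0.37), the zinc transporter of the insulin granule, Ucn3 (-0.42), a peptide of mature beta cells, Slc2a2 (-0.53) and Resp18 (-0.26), of which the last pair did not pass without set 5. Among the other islet peptides, Pdyn, the prodynorphin precursor, rose by 2.57 ± 0.26 (233 against 42 CPM) and Nucb2, the nesfatin precursor, by 1.97 ± 0.10 (551 against 140 CPM).

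**Figure D1:**
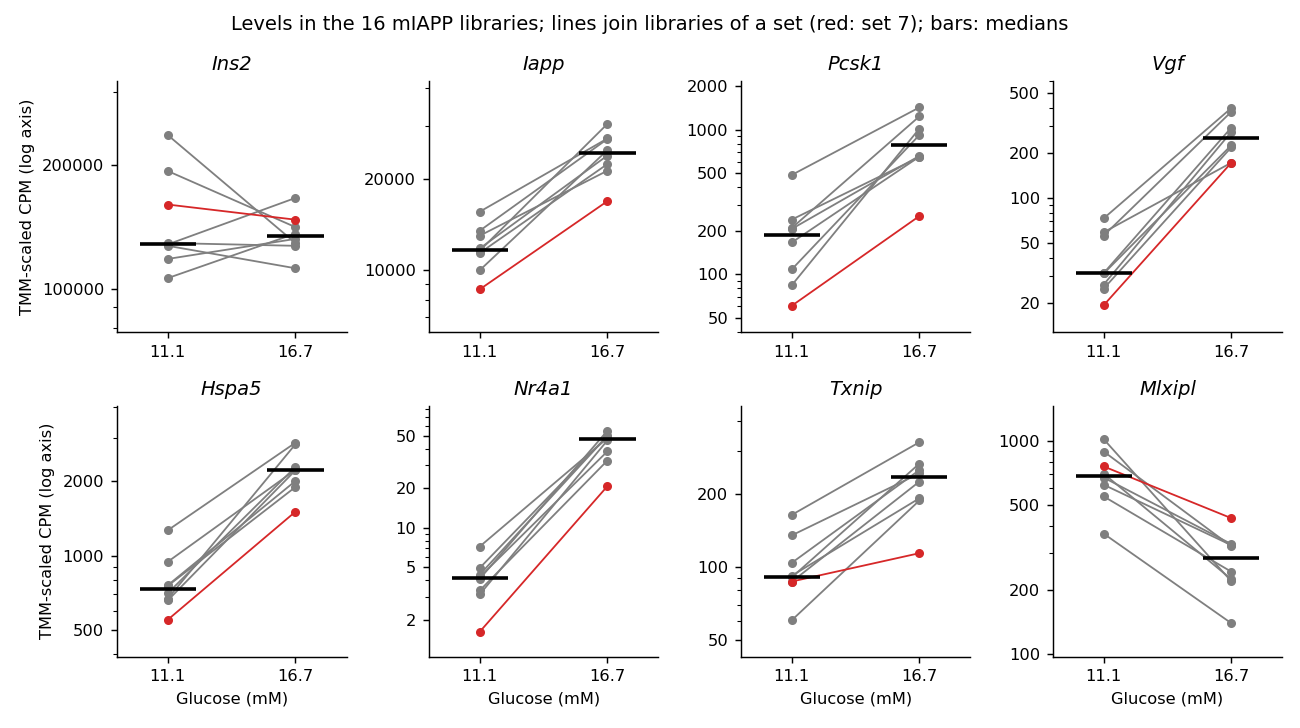
Levels of 8 genes in the 16 libraries (TMM-scaled CPM, log axis), at 11.1 and 16.7 mM glucose. Lines join the 2 libraries of a set, set 7 is red and black bars are medians. Ins2 has no common direction, Iapp, Pcsk1, Vgf, Hspa5, Nr4a1 and Txnip are higher and Mlxipl is lower at 16.7 mM in 8 of 8 sets.

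Genes that fold, modify and carry secretory proteins rose almost without exception. All 32 tested chaperones, disulfide enzymes and members of ER-associated degradation (ERAD), with regulators such as Atf6 and Ern1, were higher, against 24.9% of all genes, with a median log2 change of 1.07. So were 30 of 31 genes of ER translocation, signal peptide cleavage and N-glycosylation (median 0.99) and 32 of 32 genes of the COPI and COPII coats and their cargo receptors (median 0.78). None of these was lower. The exception, Srp54b (1.18 ± 0.56, adjusted p = 0.087; it passed without set 7), belongs to a group of near-identical gene copies between which reads may have been split.

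Hspa5 (ENSMUSG00000026864, chr2:34771970-34777547), the ER chaperone BiP, ranged from 1510 to 2870 CPM (median 2220) at 16.7 mM and from 552 to 1270 CPM (median 732) at 11.1 mM. The groups did not overlap, and the rise was 1.52 ± 0.11 on the log2 scale, 2.86-fold (adjusted p = 1.06e-10). Hsp90b1 rose by 1.48 ± 0.11 and the lectin chaperones Calr and Canx by 0.90 ± 0.07 and 0.62 ± 0.11. Of the partners of BiP, Dnajc3 rose by 1.75 ± 0.12, Dnajb9 by 1.86 ± 0.17, Dnajb11 by 1.06 ± 0.07 and Sdf2l1 by 2.02 ± 0.12. Dnajb9 had its lowest library at 16.7 mM in set 7 (203 CPM, the next lowest being 366). The disulfide isomerases Pdia3, Pdia4, Pdia6 and P4hb rose by 1.23 to 1.45, and the secreted ER proteins Creld2 and Manf by 1.54 ± 0.07 and 1.39 ± 0.07.

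Derl3 (ENSMUSG00000009092, chr10:75893413-75895941), a channel component of ERAD, changed most of this list. It ranged from 19.5 to 45.1 CPM (median 34.5) at 16.7 mM and from 2.76 to 12.2 CPM (median 4.77) at 11.1 mM, with no overlap, and rose by 2.76 ± 0.21, 6.76-fold (adjusted p = 1.63e-10). Its relatives Derl1 and Derl2 rose by only 0.47 ± 0.08 and 0.21 ± 0.07, the second not past the threshold in the libraries under 10%. The ERAD ligase genes Syvn1 and Sel1l rose by 0.78 ± 0.09 and 0.86 ± 0.13. In the translocation list, the signal peptidase subunit Sec11c rose by 1.45 ± 0.07 (309 against 113 CPM), and the translocon-associated protein Ssr3 by 1.83 ± 0.20. The cargo receptor Mcfd2 and its partner Lman1 rose by 1.32 ± 0.11 and 1.41 ± 0.17, and the COPII coat proteins Sec23b and Sec24d by 1.54 ± 0.17 and 1.44 ± 0.24. Sec24c, another COPII coat protein, rose by 0.14 ± 0.05, the smallest change of the coat list, and lost its call in 10 of 19 alternative analyses.

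The rise of the folding list was seen in every set, with a median within-set difference of 0.71 to 1.57. It was 0.71 in set 3 and 1.1 in set 7, the sets whose mitochondrial share was not lower at 16.7 mM. Among the libraries under 10%, 28 of 32 passed as higher.

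**Figure D2:**
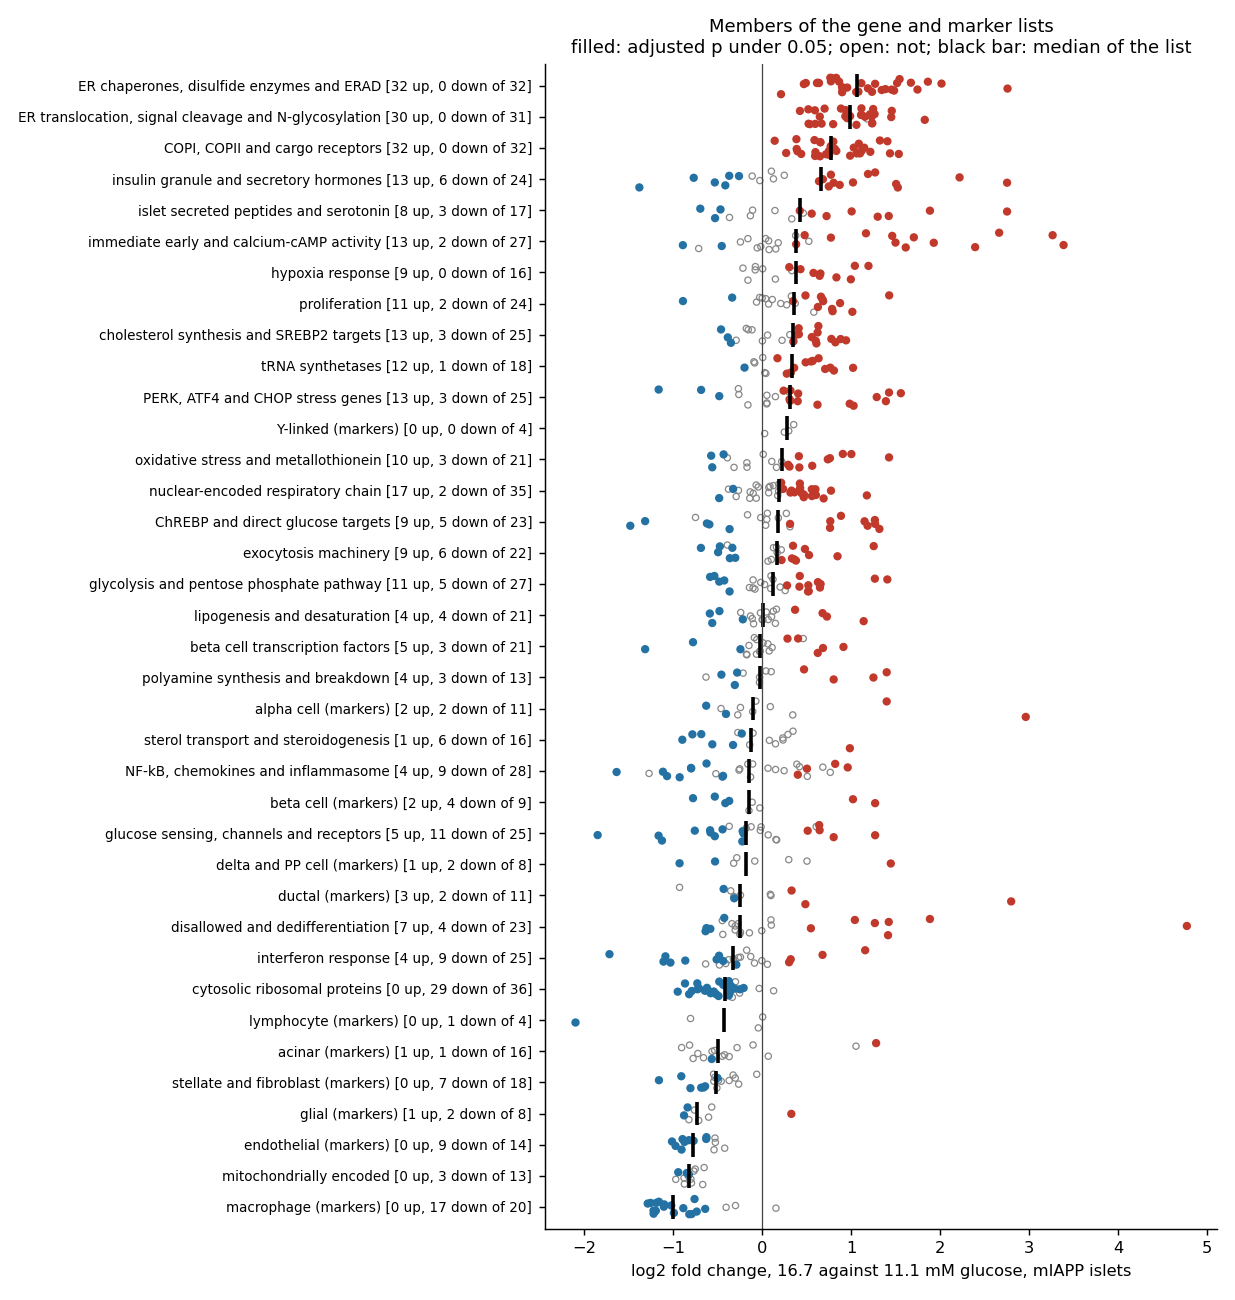
Log2 fold changes (16.7 against 11.1 mM glucose, mIAPP islets) of the members of each gene and marker list, ordered by their median (black bar). Filled points passed an adjusted p of 0.05 (red higher, blue lower), and the 3 secretory pathway lists at the top hold no lower gene.

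Several of these genes share a known promoter element, and the sequences are shown because it is the classical control element of the folding genes. The ER stress response element is read as CCAAT, a gap of 9 bases and CCACG, and is bound by Atf6 and NF-Y. In RefSeq promoter windows of mouse build GRCm38.p6 (250 bases before to 50 after the start of a transcript), this element, searched on both strands, lay in 39 of 32851 windows (0.119%), whereas its first part, CCAAT, lay in 37.4%. It lay in 9 of the 26 folding and ERAD genes that had a window (34.6%) and in 0.137% of all genes with one. The copy nearest to the start is printed below for these 9, with 12 flanking bases on each side, on the strand that reads CCAAT first, which in Calr, Creld2, Derl3 and Hsp90b1 is the strand opposite the gene. Capitals mark the fixed bases of the element.
Hspa5 (chr2:34772013-34772055, + strand): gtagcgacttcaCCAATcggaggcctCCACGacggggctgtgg
Hsp90b1 (chr10:86705521-86705563, + strand): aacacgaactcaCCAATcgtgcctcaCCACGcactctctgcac
Calr (chr8:84847063-84847105, + strand): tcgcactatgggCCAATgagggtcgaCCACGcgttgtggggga
Canx (chr11:50325788-50325830, - strand): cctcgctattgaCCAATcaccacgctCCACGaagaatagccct
Pdia6 (chr12:17266479-17266521, + strand): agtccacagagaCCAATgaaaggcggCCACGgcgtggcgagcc
Dnajc3 (chr14:118937815-118937857, + strand): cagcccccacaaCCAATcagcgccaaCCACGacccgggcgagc
Creld2 (chr15:88819508-88819550, - strand): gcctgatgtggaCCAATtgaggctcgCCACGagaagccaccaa
Syvn1 (chr19:6046520-6046562, + strand): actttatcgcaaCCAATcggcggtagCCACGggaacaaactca
Derl3 (chr10:75893230-75893272, - strand): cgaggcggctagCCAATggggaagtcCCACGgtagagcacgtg

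The letters in the gap differ from gene to gene. The element of Hspa5 lies 65 to 47 bases before the start of its RefSeq transcript, a start that lies inside the gene span given above. The 250 bases before that start are printed next, again with the element in capitals.
Hspa5 (chr2:34771840-34772089, + strand): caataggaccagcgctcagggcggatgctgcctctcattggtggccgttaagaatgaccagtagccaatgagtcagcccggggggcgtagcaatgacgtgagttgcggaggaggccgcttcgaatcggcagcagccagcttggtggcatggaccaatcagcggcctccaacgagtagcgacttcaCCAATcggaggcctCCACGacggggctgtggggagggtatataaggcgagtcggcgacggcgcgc
Of all genes with the element, 18 were tested. Of these, 11 were higher and 1, Pan2, was lower, with a median of 0.56. Over the 11857 tested genes with a window, 26.6% were higher and 23.3% lower, with a median of -0.01. Of the 18, 9 belong to the folding and ERAD list, all of whose tested members were higher. Of the other 9, 2 were higher (22.2%) and 1 lower (11.1%), with a median of -0.01. Those 2 were Alg12, which adds mannose to N-glycans (0.50 ± 0.09, higher), and Hnrnpa3, an RNA-binding protein (0.38 ± 0.12, not past the threshold without set 3). Adcy3 (0.07 ± 0.21, not past the threshold) was among the rest. A match describes the letters only and does not show that a factor bound there.

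**Figure D3:**
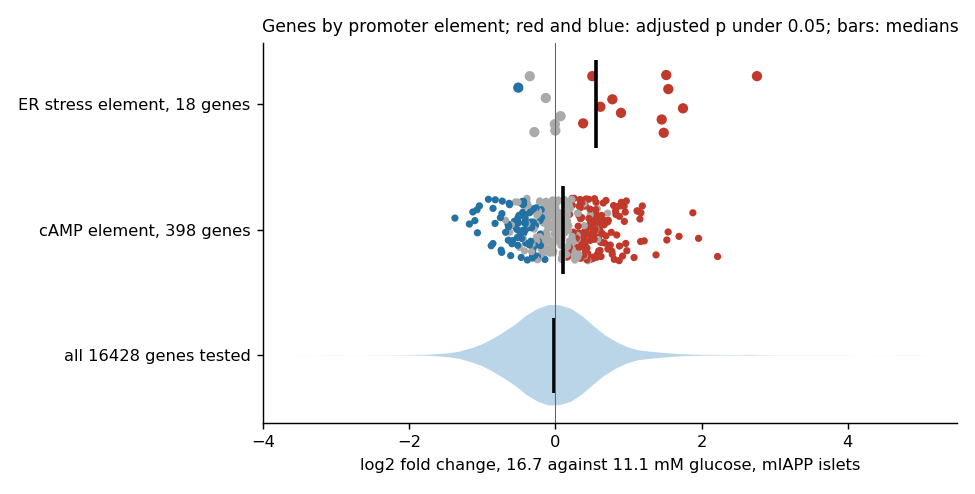
Log2 fold changes of genes whose promoter window holds the ER stress response element (18 genes) or the cAMP response element (398 genes), above the distribution of all 16428 genes tested. Red and blue points passed as higher and lower, and the bars are medians, 0.56, 0.10 and -0.03 from top to bottom.

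The branch of the unfolded protein response that runs through Eif2ak3 (PERK) and Atf4 split. Of 25 tested members, 13 were higher and 3 lower (median 0.31), and in the libraries under 10% 8 and 5, and without set 7 11 and 5, were higher and lower. Enzymes of serine and asparagine synthesis, known targets of Atf4, rose: Phgdh by 1.39 ± 0.14, Psat1 by 1.29 ± 0.09 and Asns by 0.98 ± 0.08. Eif2ak3 itself rose by 1.03 ± 0.20, and the other sensors Atf6 and Ern1 by 0.96 ± 0.17 and 0.77 ± 0.26, the latter not past the threshold without set 2, without set 8 or in the libraries under 10%. Ddit3 (ENSMUSG00000025408, chr10:127290774-127296288), which codes for the stress factor CHOP, went the other way. It ranged from 33.9 to 260 CPM (median 66.5) at 16.7 mM and from 70.6 to 398 CPM (median 150) at 11.1 mM, and the groups overlapped. It stood at 260 CPM at 16.7 mM and 256 at 11.1 mM in set 7, and in the other 7 sets the library at 16.7 mM was lower. The change over all sets was -1.16 ± 0.24 (adjusted p = 0.000433), and -0.76 with the mitochondrial share as a covariate. Trib3 and Atf5, which are found downstream of Atf4 and CHOP, fell by 0.69 and 0.48. Of 18 tRNA synthetases, also Atf4 targets in part, 12 rose, among them Hars (1.02 ± 0.07), and 1, Yars (-0.20), fell, a call lost in 8 of 19 alternatives, among them without set 2, 5 or 8.

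Early genes of calcium and cAMP signalling held some of the sharpest changes. Of 27 tested members 13 were higher and 2 lower, with a median of 0.38. Nr4a1 (ENSMUSG00000023034, chr15:101254269-101274795), an orphan nuclear receptor induced by calcium, ranged from 20.8 to 55 CPM (median 47.4) at 16.7 mM and from 1.62 to 7.22 CPM (median 4.17) at 11.1 mM. The groups lay far apart, and the rise was 3.39 ± 0.20, 10.5-fold (adjusted p = 1.14e-12). Its relatives Nr4a2 and Nr4a3 rose by 2.39 ± 0.13 and 1.93 ± 0.44, the calcium-dependent factor Npas4 by 3.26 ± 0.24 and the cAMP-responsive Crem by 1.5 ± 0.10. The MAP kinase phosphatases Dusp4 and Dusp6 rose by 2.66 ± 0.26 and 1.70 ± 0.18, and the kinase Sik1 by 1.46 ± 0.16. Fos rose by 1.61 ± 0.26 (not past the threshold in the libraries under 10%), whereas Jun (0.07 ± 0.11, adjusted p = 0.614) and Junb (0.04 ± 0.14, adjusted p = 0.84) did not pass. Egr3 fell, at levels under 1 CPM (0.495 against 0.878 CPM), a call lost without set 2, 3, 5 or 6. The islets had been at their glucose level for 48 h, so these are levels in a sustained culture.

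The cAMP response element, read as TGACGTCA, lay in 588 windows (1.79%) and in 2.03% of genes. In the granule list it lay in 3 of 18 genes with a window (16.7%), and these sites are printed because all 3 genes rose. Each is shown on the strand of its gene, with 12 flanking bases on each side and the element in capitals.
Pcsk1 (chr13:75089767-75089798, + strand): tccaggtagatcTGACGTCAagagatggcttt
Scg2 (chr1:79440075-79440106, - strand): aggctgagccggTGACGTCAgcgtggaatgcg
Chgb (chr2:132781558-132781589, + strand): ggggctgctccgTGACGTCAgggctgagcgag
The sites lie 78 to 71, 68 to 61 and 72 to 65 bases before the start of the RefSeq transcript. In the ribosomal protein list the element lay in 3 of 24 genes with a window (12.5%). All 3 of those were lower (-0.73, -0.41 and -0.43). Of 398 tested genes with this element, 34.9% were higher and 20.4% lower, with a median of 0.10. The shares were 26.6% and 23.3% of all tested genes with a window.

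Among the genes by which the beta cell senses glucose, more fell than rose. Of 25 tested members of that list 5 were higher and 11 lower (24.9% and 22.7% of all genes), with a median of -0.18. Without set 5 the counts were 7 and 7, and without the filter on low counts 5 and 7. Trpm5 (ENSMUSG00000009246, chr7:143069153-143094642), a calcium-activated cation channel, ranged from 17.4 to 41 CPM (median 27.1) at 16.7 mM and from 78.8 to 130 CPM (median 95.5) at 11.1 mM, without overlap, and fell by 1.85 on the log2 scale (adjusted p = 2.94e-09). Its relative Trpm2 changed by -1.17 ± 0.15. The incretin receptor Gipr had means of 204 ± 104 against 426 ± 127 CPM (16.7 against 11.1 mM) and changed by -1.13 ± 0.15. Glp1r, the other incretin receptor, changed by -0.45 ± 0.14 and Slc2a2 by -0.53 ± 0.19. The channel subunit Abcc8 fell slightly (-0.22 ± 0.08, not past the threshold without set 2, 3 or 5), and its partner Kcnj11 did not pass (-0.18 ± 0.10), although it did without set 7. Against this, G6pc2, an islet glucose-6-phosphatase, ranged from 1250 to 2600 CPM (median 2240) at 16.7 mM and from 539 to 1420 CPM (median 923) at 11.1 mM and rose by 1.27 ± 0.13 (adjusted p = 1.09e-08). The cAMP sensor Rapgef4 rose by 0.80 ± 0.15, the inhibitory adrenergic receptor Adra2a by 0.64 ± 0.10, the potassium channel Kcnk16 by 0.51 ± 0.08 and the transporter Slc2a1 by 0.65 ± 0.19, the last pair not past the threshold in the libraries under 10%.

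Most beta cell transcription factors did not pass, while 47.5% of all genes did. Of 21 tested, 5 were higher and 3 lower, beside 24.9% and 22.7% of all genes. Pdx1 (0.06 ± 0.09), Nkx2-2 (-0.03 ± 0.06), Neurod1 (-0.03 ± 0.09) and Foxa2 (0.01 ± 0.06) were among those that did not pass. The factors that fell were Mlxipl, Mafa and Myt1, the last not in the libraries under 10%. Mafa, a driver of insulin transcription and of maturity, ranged from 503 to 834 CPM (median 628) at 16.7 mM and from 943 to 1270 CPM (median 1050) at 11.1 mM, without overlap, and fell by 0.78 (adjusted p = 8.01e-06). St18 rose by 0.91 ± 0.17. Insm1, a factor of endocrine development, rose by 0.68 ± 0.19, a call that was lost without the replicate block, with the mitochondrial share as a covariate and in the libraries under 10%. In those libraries 1, and without the block or with that covariate 2, of the list were higher. Without set 8, 4 were higher and 5 lower. The factors Foxa1 and Pax4 were too low to be tested.

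Known glucose targets changed in both directions. Txnip (ENSMUSG00000038393, chr3:96557957-96561883), which binds thioredoxin and restrains glucose uptake, ranged from 114 to 327 CPM (median 234) at 16.7 mM and from 60.3 to 164 CPM (median 91.3) at 11.1 mM. The groups overlapped, since set 7 at 16.7 mM stayed among the values at 11.1 mM, and the rise was 1.15 ± 0.13 (adjusted p = 6.76e-08). Its relative Arrdc4 rose by 1.32 ± 0.14, without overlap. The sugar sensor Mlxipl (ENSMUSG00000005373, chr5:135089890-135138382) ranged from 140 to 435 CPM (median 282) at 16.7 mM and from 368 to 1020 CPM (median 688) at 11.1 mM and fell by 1.32 on the log2 scale (adjusted p = 4.87e-09), in 8 of 8 sets. Its binding partner Mlx rose by 0.77 ± 0.09. Khk, ketohexokinase, fell by 1.48, also in 8 of 8 sets. In all, 9 of 23 tested members of the list were higher and 5 lower (5 and 4 in the libraries under 10%, 9 and 3 without the filter on low counts, and 7 and 3 in a fit of the wild-type libraries alone). An E-box, CACGTG, lay in 6 of 19 genes of this list with a window (31.6%), among them Mlxipl, Mlx, Arrdc4 and Khk. It lay in 8.09% of all genes. In the other lists its share ran from 0% (the insulin granule list) to 31.2% (beta cell transcription factors, with Mlxipl among them), and it was 30% of the tRNA synthetases. A search for 2 such boxes 5 bases apart found 0 windows.

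Glycolysis and lipid synthesis changed in part. Of 27 glycolytic and pentose phosphate genes 11 were higher and 5 lower (5 and 4 in the libraries under 10%, and 3 lower without set 1, 3 or 5), led by Pgk1, phosphoglycerate kinase (1.41 ± 0.13, 256 against 98.2 CPM, no overlap), and Pgam1 (0.66 ± 0.08). Among those that fell, Eno2, Aldoc, Pklr and Hk1 fell by 0.37 to 0.54, of which Pklr and Hk1 did not pass without set 1, 3 or 5 (nor Pklr without set 4 and Hk1 without set 2 or 6). Of 21 genes of lipogenesis, 4 were higher and 4 lower (2 and 6 in the libraries under 10%). Malic enzyme (Me1) rose by 0.73 ± 0.10 and the elongase Elovl7 by 1.14 ± 0.22, whereas fatty acid synthase (Fasn, 0.05 ± 0.08), Acly (0.13 ± 0.09) and Acaca (-0.10 ± 0.06) did not pass. Of 25 genes of cholesterol synthesis and SREBP2 control, 13 were higher and 3 lower, among them Sqle (0.94 ± 0.12) and Cyp51 (0.88 ± 0.09) as higher. With the mitochondrial share as a covariate 7 of them passed as higher and 3 as lower, and 7 were higher and 6 lower in the libraries under 10%.

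Among the exocytosis genes, 9 of 22 were higher and 6 lower (4 and 5 in the libraries under 10%). The granule GTPase Rab3d rose by 1.25 ± 0.12, without overlap, and the calcium sensor Syt5 by 0.85 ± 0.11. The complexin Cplx2 fell by 0.69, also without overlap, and the syntaxin Stx1a by 0.50. The core fusion gene Vamp2 (0.17 ± 0.10) did not pass.

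Several of the largest rises were in genes outside these pathways. Serpina7 (ENSMUSG00000031271, chrX:139079257-139085236), thyroxine-binding globulin and a member of the list of dedifferentiation genes, ranged from 35.6 to 171 CPM (median 94.5) at 16.7 mM and from 1.44 to 5.51 CPM (median 3.3) at 11.1 mM. No library came near the other group, and the rise was 4.77 ± 0.26, 27.3-fold (adjusted p = 7.33e-13). Mc5r, a melanocortin receptor that signals through cAMP, ranged from 4.82 to 13.8 CPM (median 11) at 16.7 mM and from 0 to 0.668 CPM (median 0.261) at 11.1 mM, and rose by 5.13 ± 0.39, the largest change of the genes named. Pappa2, a protease that frees IGF from its binding proteins, rose by 3.34 ± 0.24 (343 ± 156 against 33.3 ± 12.4 CPM). Tent5a, a poly(A) polymerase for secretory transcripts, rose by 2.80 ± 0.15 (283 ± 54.6 against 41.3 ± 13.5 CPM).

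Further rises of 2.67 to 3.30 on the log2 scale were found for Dapl1, Aass, Csn3, Spp1, Zdhhc22 and Gucy2c, in 8 of 8 sets and without overlap. Aass degrades lysine, Spp1 is osteopontin and Gucy2c is the receptor of guanylin. Spp1 is also a marker of duct cells, of which 3 of 11 tested members were higher and 2 lower (1 and 2 in the libraries under 10%), near the 24.9% and 22.7% of all genes, while Krt19 (-0.35 ± 0.36), Krt7 (0.10 ± 0.11) and Sox9 (-0.25 ± 0.32) did not pass. Gc, vitamin D-binding protein, is a marker of alpha cells and ranged from 142 to 358 CPM (median 251) at 16.7 mM and from 20.6 to 46.8 CPM (median 32.7) at 11.1 mM. It rose by 2.96 ± 0.18 (adjusted p = 3.48e-12), beside a rise of 1.4 ± 0.17 for transthyretin (Ttr), while glucagon itself (Gcg, 0.09 ± 0.32, adjusted p = 0.834) and the alpha cell factor Irx2 (-0.07 ± 0.24) did not pass. In the libraries under 10% Gcg passed as higher, at 0.97. Of the markers of dedifferentiation and disallowed genes as a whole, 7 of 23 were higher and 4 lower, near the 24.9% and 22.7% of all genes. Without set 1, 3 or 5 only 2 were lower. Besides Serpina7, Aldh1a3, a retinaldehyde dehydrogenase known from dedifferentiated beta cells, rose by 1.04 ± 0.21 (10.5 against 5.11 CPM), while Ldha (0.10 ± 0.18), Slc16a1 (-0.27 ± 0.27) and Neurog3 (0.10 ± 0.26) did not pass.

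The deepest falls were smaller than the largest rises. T2 fell by 2.24 (9.3 against 42 CPM), Lrrc36 by 1.92 and Cib3, a calcium-binding protein, by 1.72 (24.5 against 78.2 CPM). Dbp, a factor of the circadian clock output, changed by -1.61 ± 0.14 (38 ± 12.6 against 115 ± 28.5 CPM), without overlap, and the clock repressor Nr1d1 by -0.62 ± 0.13. Among genes with a mean of at least 100 CPM, Insrr, a receptor of the insulin receptor family, changed by -1.24 ± 0.13 (314 against 747 CPM), the selenoprotein Selenow by -1.33 ± 0.18, Wnt4 by -1.09 ± 0.12 and Ppp1r1a, an inhibitor of protein phosphatase 1, by -1.08 ± 0.17. Rpl17-ps8, a pseudogene of a ribosomal protein, had the largest fitted fall (-3.02 ± 1.11), but stood between 0 and 129 CPM at 16.7 mM and lost its call in 8 of 19 alternative analyses. The falls of the histone gene Hist2h2aa2, which has near-identical copies, of Sap25 and of Tmsb15b2 were each lost in 1 or 2 alternatives (without the replicate block or in the libraries under 10%).

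Ribosomal protein RNA was lower. Of 36 tested, 0 were higher and 29 lower, with a median of -0.42, and the within-set median was below 0 in 8 of 8 sets (-1.40 to -0.05). Rps27 ranged from 157 to 399 CPM (median 211) at 16.7 mM and from 261 to 792 CPM (median 428) at 11.1 mM, groups that overlapped, and fell by 0.95 (adjusted p = 1.24e-05). Library composition moved with this list: the share of counts on pseudogenes, many of them copies of such genes, was 1.6 ± 0.924% at 16.7 mM and 2.54 ± 1.05% at 11.1 mM and lower in 8 of 8 sets, and the mitochondrial share was lower in 6. With the mitochondrial share as a covariate 14 of the 36 passed as lower, and in the libraries under 10% 5 passed. What part these shares have in the fall was not tested.

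Of 13 mitochondrially encoded genes 3 passed as lower, mt-Co3 (-0.94 ± 0.33), mt-Cytb (-0.85 ± 0.32) and mt-Nd5 (-0.83 ± 0.33), and the median was -0.83. The within-set medians ran from -2.76 in set 2 to 0.85 in set 3. Without set 7, 12 of the 13 passed as lower and without set 3, 11. These 3 calls were lost without set 2, without set 8 and without the replicate block. With the mitochondrial share as a covariate 5 of the 13 passed as higher. That share is computed from the counts of these same genes, so that fit cannot show whether they changed. Of the nuclear genes of the respiratory chain, 17 of 35 were higher and 2 lower (18 and 4 without set 7, 16 and 4 without set 6), with Ndufa1 (1.18 ± 0.12) and Ndufa4 (0.77 ± 0.08) in front, each without overlap.

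Markers of macrophages, endothelium and stellate cells fell at 16.7 mM. Of 20 macrophage markers 17 were lower (22.7% of all genes were) and 0 higher, with a median of -1.01, and their summed level ranged from 142 to 313 CPM at 16.7 mM and from 315 to 547 CPM at 11.1 mM. The sum was lower in 8 of 8 sets. The receptor Csf1r, on which macrophages depend, ranged from 7.14 to 17.6 CPM (median 10.5) at 16.7 mM and from 18.2 to 29.9 CPM (median 24.1) at 11.1 mM, without overlap, and fell by 1.16 (adjusted p = 2.71e-07). Complement C1qa, C1qb and C1qc and the class II genes H2-Aa, H2-Ab1 and H2-Eb1 fell by 0.99 to 1.29. Of 14 endothelial markers 9 were lower (3 in the libraries under 10%), with Eng at -0.90 ± 0.19 and Pecam1 at -0.63 ± 0.21 (not past the threshold without set 2 or 5), and the sum was lower in 8 of 8 sets (56.7 to 193 CPM against 93.6 to 276). Of 18 stellate and fibroblast markers 7 were lower (3 without the replicate block, 11 without set 8 and 14 in a fit of the wild-type libraries alone), with Des at -1.16 ± 0.20 and Acta2 at -0.91 ± 0.19, and their sum was lower in 8 of 8 sets too. Of 4 tested lymphocyte markers 1, the B cell gene Cd79a, was lower (1.58 against 6.53 CPM, without overlap). The others, Ms4a1, Cd3d and Cd4, did not pass, although Ms4a1 did without set 3. The lymphocyte markers Cd3e, Cd8a and Nkg7 were too low to be tested. Of the tested markers of these 4 kinds, 0 were higher.

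Inflammatory and interferon genes, which macrophages also express, fell more often than they rose. Of 28 genes of NF-kB signalling, chemokines and the inflammasome 4 were higher and 9 lower, and of 25 interferon response genes 4 were higher and 9 lower. Without set 1 or set 8, 1 interferon gene was higher, and without set 2, 4 or 6, 2 were. Without the replicate block 3 genes of the NF-kB list were higher and 5 lower. Cxcl16 changed by -1.12 ± 0.11, Ccl5 by -1.07 ± 0.21 (lost without the replicate block) and the immunoproteasome genes Psmb8 and Psmb9 by -0.87 ± 0.12 and -1.03 ± 0.15. The interleukin receptor Il1r1 rose (0.96 ± 0.24, lost in the libraries under 10%), as did the NF-kB regulator Nfkbiz (0.82 ± 0.16). The cytokines Il1b (0.15 ± 0.25) and Tnf (-0.52 ± 0.65) did not pass, although Tnf did as lower without set 7. The part of macrophage RNA in these changes was not tested.

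**Figure D4:**
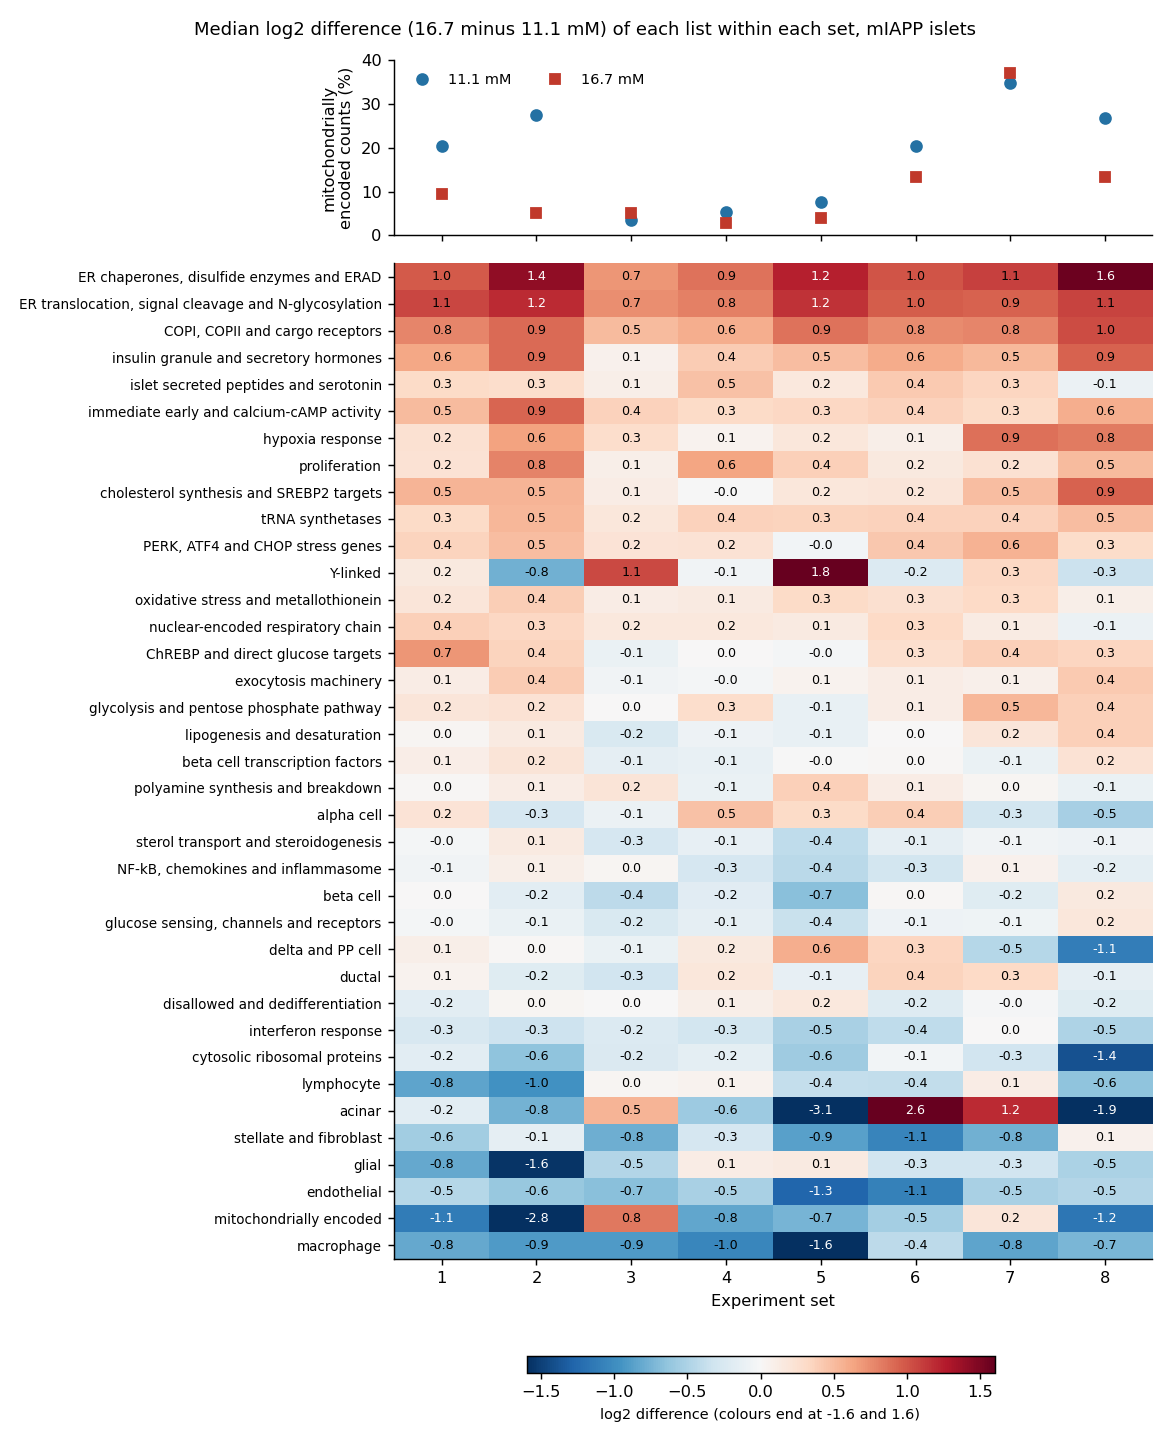
Median log2 difference (16.7 minus 11.1 mM) of every list within each of the 8 sets, below the mitochondrial share of the 2 libraries of the set. The 3 secretory lists are above 0 and the ribosomal, endothelial and macrophage lists below 0 in every set, while the acinar, Y-linked and mitochondrially encoded lists change sign between sets.

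Smaller groups were examined in the same way. Of 24 proliferation genes 11 were higher and 2 lower (6 and 0 with the mitochondrial share as a covariate), led by cyclin D1 (Ccnd1, 1.01 ± 0.12, 230 against 116 CPM, no overlap) and Rrm2 (1.43 ± 0.27), whereas Top2a (0.37 ± 0.19, past the threshold without set 7) and Foxm1 (0.07 ± 0.21) did not pass. Of 16 hypoxia genes 9 were higher and 0 lower, among them P4ha1 (1.04 ± 0.10) and Bnip3 (1.00 ± 0.14), while Vegfa (-0.08 ± 0.10) did not pass. In the libraries under 10%, 5 were higher and 2, Vegfa among them, lower. Of 21 genes of the oxidative stress list 10 were higher and 3 lower, with the cystine transporter Slc7a11 (1.43 ± 0.11) and thioredoxin Txn1 (0.91 ± 0.09) higher. In polyamine synthesis, Odc1, ornithine decarboxylase, ranged from 132 to 230 CPM (median 171) at 16.7 mM and from 40.1 to 84.3 CPM (median 62.3) at 11.1 mM and rose by 1.4 ± 0.13 (adjusted p = 5.17e-09), and its protector Azin1 rose by 1.25 ± 0.18. In that list 4 of 13 genes were higher and 3 lower.

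Other hormones and endocrine cell types of the islet were examined beside the beta cell genes. Of 17 tested secreted peptide and serotonin genes 8 were higher and 3 lower (4 and 1 with the mitochondrial share as a covariate). The peptide precursors Gast and Pyy, gastrin and peptide YY, changed by 1.42 ± 0.39 (lost with that covariate) and -0.53 ± 0.21 (lost in 9 of 19 alternatives, and -0.33 without set 8). Of the 11 alpha cell markers tested 2 were higher and 2 lower, and of 8 delta and PP cell markers 1 and 2. Somatostatin (Sst, 0.30 ± 0.17, adjusted p = 0.157) did not pass, although it did without set 8. The summed alpha cell markers ranged from 2230 to 15300 CPM at 16.7 mM and from 2160 to 7650 CPM at 11.1 mM, groups that overlapped. Of 9 beta cell markers 2, Iapp and G6pc2, were higher and 4 lower. Of 16 acinar markers 1 was higher and 1 lower, of 8 glial markers 1 and 2, and of 16 sterol transport and steroidogenesis genes 1, Star, and 6.

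The same contrast in the hIAPP islets, which share the experiment sets but no library, gave 10768 calls (65.5%). Of the wild-type calls, 6829 were called there with the same sign (87.5% of the wild-type and 63.4% of the hIAPP calls), 31 with the opposite sign and 945 not at all. Whether the responses differed was read from the genotype by glucose interaction, in which 513 genes (3.12%) passed, 357 (2.17%) with a higher and 156 (0.95%) with a lower log2 change in hIAPP islets. Of the 513, 295 were among the 7805 wild-type calls. In the 3 secretory pathway lists, 0 of 95 tested genes passed the interaction in edgeR and 11 had an unadjusted p under 0.05, while DESeq2 called 3 and limma voom 0. Hspa5 rose by 1.62 ± 0.11 in hIAPP islets beside 1.52 ± 0.11 in wild-type islets.

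Where the interaction passed, the wild-type islets gave the larger rise in some genes and the smaller one in others. In the list of early genes of calcium and cAMP signalling 12 of 27 tested genes passed it, against 3.12% of all genes. Nr4a1 rose by 3.39 ± 0.20 in wild-type and by 2.27 ± 0.19 in hIAPP islets (interaction -1.11 ± 0.26, adjusted p = 0.0148; not past the threshold without set 1, 2 or 4). Npas4 did so by 3.26 ± 0.24 and 1.58 ± 0.23 (interaction adjusted p = 0.0028), and Dapl1 and Zdhhc22 went the same way. In contrast, Vgf, Chgb and Ptprn rose less in wild-type islets: Chgb by 1.19 ± 0.15 against 2.04 ± 0.16 (interaction adjusted p = 0.0235; lost without set 1, 4 or 6). The interaction of Vgf (0.92 ± 0.26, adjusted p = 0.044) was lost in 12 of 18 alternatives, among them every set left out but 8. The early genes Jun, Junb, Atf3 and Ier3 did not pass in wild-type islets. They had log2 changes of 1.29, 1.01, 1.29 and 1.18 in hIAPP islets, each with an interaction. The falls of Trpm5, Cib3 and Mlxipl were smaller in wild-type islets, with interactions of -1.17 ± 0.23, -1.70 ± 0.24 and -0.71 ± 0.17, the last lost without set 1 or 6.

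Star, which carries cholesterol into mitochondria and gave the series its title, ranged from 13.3 to 21.8 CPM (median 17.3) at 16.7 mM and from 4.87 to 12.8 CPM (median 8.35) at 11.1 mM in wild-type islets. The groups did not overlap, and it rose by 0.99 ± 0.19 (adjusted p = 0.000133). In hIAPP islets the rise was 3.73 ± 0.20, and the interaction was 2.75 ± 0.26 (adjusted p = 1.35e-06). Odc1 (1.66 ± 0.18), Sat1 (2.03 ± 0.24), Dusp10 (1.43 ± 0.14), Dusp8 (1.42 ± 0.16), Herc4 (1.38 ± 0.17), Igf1r (1.3 ± 0.16) and Inpp5f (1.15 ± 0.13) completed the 8 genes with the smallest interaction p at a mean of at least 5 CPM. Of these, Sat1, which breaks down polyamines, Dusp10 and Dusp8 did not pass in wild-type islets. The mitochondrial share was 4.06 ± 1.63% in hIAPP islets at 16.7 mM and 16.6 ± 7.82% at 11.1 mM, beside 11.3 ± 11.2% and 18.2 ± 11.6% in wild-type islets. With that share as a covariate 260 genes passed the interaction, and 7 did in the libraries under 10%. Of the 24 interactions named here and in the closing section, 15 passed with the covariate and 3, those of Star, Dusp10 and Dusp8, in the libraries under 10%. Only 2 hIAPP libraries at 11.1 mM had such a low share.

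**Figure D5:**
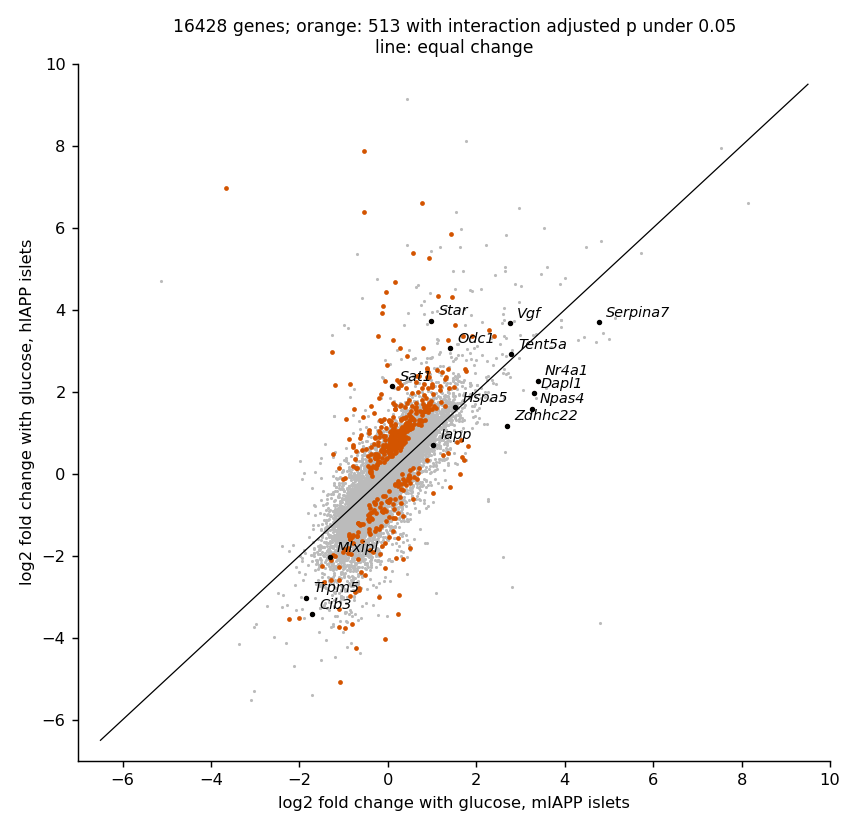
Log2 fold change with glucose in hIAPP islets (y) against wild-type mIAPP islets (x), for the 16428 genes tested, of which 12 lie outside the axes. The line marks equal change, orange points passed the interaction, and Star, Odc1 and Sat1 lie above the line while Nr4a1, Dapl1, Npas4 and Zdhhc22 lie below it.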

How the data were processed

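Poly(A)-selected RNA of cultured islets was sequenced with a directional kit, per the labels' protocols. The submitters' processing notes name bcl2fastq 1.8.4, kallisto 0.45.0 and the build GRCm38; how transcripts were summed to genes is not given in the sources used here. The authors deposited expected counts (kallisto estimates) for 36595 genes in 32 libraries, which were rounded to whole numbers, and all columns named a sample. Coordinates and gene types were joined by identifier from GENCODE M21 (36047 of the 36595 identifiers matched), and 1399 identifiers share a symbol with another. The members and gene lists were chosen with earlier results of these data known.

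After edgeR's filterByExpr by group (16428 genes left) and TMM scaling, the quasi-likelihood test (edgeR 4.0.16, R 4.3.3) was fitted to all 32 libraries with the 4 groups and the experiment set as a replicate block (21 residual degrees of freedom), and p-values were adjusted by Benjamini-Hochberg over all genes. Errors of log2 fold changes are SE from that fit, levels are TMM-scaled CPM, and within-set differences used a pseudocount of 0.5 CPM. The labels state that each set held all 4 groups. The deviations of the wild-type libraries at both glucose levels correlated at a mean r of 0.307 within a set (-0.23 to 0.795) and -0.0355 between sets, and 4 of 8 libraries correlated best with their own set. The pipeline was tested on simulated data. Values were recomputed under up to 19 alternatives (17 to 19 for the genes named by the rule below, 17 or 18 for interactions) with limma 3.58.1 (voom) and DESeq2 1.42.0 among them. The libraries held 16.1 to 37.1 M counts, and counting error was not compared with the spread between sets.

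Named genes were Ins1, Ins2, Iapp, Txnip and Star, the 15 strongest called changes each way among genes averaging 5 CPM or more whose sign held in 7 or more of 8 sets, the 10 strongest each way from 100 CPM, the 6 members of each list (4 of each marker list) with the smallest p, and the 8 genes with the smallest interaction p. Gene models without a symbol of their own were passed over. The others named are list members or carriers of a motif, lie outside this rule and were picked after their values were seen: Abcc8, Acaca, Acly, Adcy3, Aldoc, Alg12, Atf3, Atf4, Atf5, Atf6, C1qc, Calr, Canx, Chga, Chgb, Derl1, Derl2, Egr3, Eif2ak3, Ern1, Fasn, Fos, Foxa2, Foxm1, Gcg, Glp1r, H2-Aa, H2-Ab1, H2-Eb1, Hk1, Hnrnpa3, Hspa5, Ier3, Il1b, Irx2, Jun, Junb, Kcnj11, Kcnk16, Krt19, Krt7, Ldha, Lman1, Neurod1, Neurog3, Nkx2-2, Nr1d1, Nr4a3, P4hb, Pan2, Pcsk1n, Pcsk2, Pdia3, Pdia4, Pdia6, Pdx1, Pecam1, Pklr, Ptprn, Rapgef4, Resp18, Scg2, Sec23b, Sec24c, Sec24d, Sel1l, Sik1, Slc16a1, Slc2a1, Slc2a2, Sox9, Srp54b, Ssr3, Stx1a, Syvn1, Tnf, Top2a, Trib3, Ucn3, Vamp2, Vegfa and Yars. Listed symbols absent from the table (Ero1b, which 2 lists held, Ero1a, Copd and Icer) entered no count, and those under the filter were not tested. Promoter windows came from RefSeq (GRCm38.p6) by symbol, and motifs were searched on both strands. Some genes of these lists entered the counts but are not reported here by name.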

Additional observations from a re-analysis of the deposited data

Results flagged for a closer look

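Of 120 groups of 8 libraries examined for a library far from the others, 12 (10%) held one, and chance flags about 1 in 20 groups. Set 7 accounted for 8 of them. At 16.7 mM its library had 37% mitochondrially encoded counts (the next highest had 13.4%) and 3.74% on pseudogenes (next 1.81%), and at 11.1 mM it had the fewest counts, 16.1 M (next 23 M; M stands for 1e6). In the same library at 16.7 mM, Pcsk1 stood at 253 CPM (next lowest 648), Dnajb9 at 203 CPM (next lowest 366), Ddit3 at 260 CPM (next highest 76.1) and Rpl17-ps8 at 129 CPM (next highest 5.28). At 11.1 mM, Dapl1 was highest in set 7 (38.6 CPM, next 16.4). Outside set 7, Derl3 was lowest in set 3 at 16.7 mM (19.5 CPM, next 31.6) and Nucb2 highest in set 4 at 11.1 mM (187 CPM, next 143). Hist2h2aa2 was lowest in set 4 at both levels, with 0 CPM at 16.7 mM (next 7.92) and 17 CPM at 11.1 mM (next 42.7).

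The glucose change of 18 of 56 genes examined passed the edgeR test of the genotype by glucose interaction, which 3.12% of all genes tested passed. For 8 of the 18 this was fixed by their choice, as the genes with the smallest interaction p, and of the other 48, chosen by the wild-type change or by name, 10 passed. On the log2 scale, hIAPP minus mIAPP, it was larger in hIAPP islets for Star (2.75), Sat1 (2.03), Odc1 (1.66), Dusp10 (1.43), Dusp8 (1.42), Herc4 (1.38), Igf1r (1.3), Inpp5f (1.15) and Vgf (0.92). The rise was smaller in hIAPP islets for Npas4 (-1.68), Zdhhc22 (-1.51), Dapl1 (-1.33) and Nr4a1 (-1.11), and the fall deeper for Cib3 (-1.70), T2 (-1.29), Trpm5 (-1.17), Insrr (-0.73) and Mlxipl (-0.71). Without set 1, 5 of the 24 interactions named here and in the report did not pass (19 did), and without set 4 or 6, 20 passed. Those of Vgf, Nr4a1, Insrr and Mlxipl were among the lost, whereas that of Star passed in all 18 alternatives in which it was tested.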

How the results depend on the processing

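The 7805 wild-type calls numbered 5713 without the replicate block and 8303 with DESeq2. With 1 set left out they numbered 6269 (without set 2) to 8508 (without set 7). With the mitochondrial share as a covariate they numbered 5805, of which 5218 were among the reported calls. In the fit of the libraries with a mitochondrial share under 10%, hIAPP libraries among them, they numbered 5181, of which 4341 were among the reported calls. Calls shared with the reported ones kept their sign under every alternative, and the higher calls made up 47.8 to 56.7% of calls (52.3% as reported). The 10768 hIAPP calls fell to 3181 with the mitochondrial share as a covariate and 3881 under 10%, and ranged from 9764 to 10883 with 1 set left out. The 513 interaction calls were least stable: 196 without the replicate block, 260 with the covariate, 7 under 10%, 929 with limma voom and 959 with DESeq2, and 239 (without set 1) to 558 with 1 set left out, among them 310 without set 2, 280 without set 6 and 337 without set 8. The cause was not tested, although the libraries under 10% were also fewer. Of 232 named genes 213 were called, and 173 of these kept direction and call in all the alternatives in which they were tested (17 to 19). The other 40 lost the call in at least 1, most often under 10% (34 genes) and without the replicate block (17). Of these, mt-Nd5 reversed to 0.006 with the covariate (adjusted p = 0.958), which is computed in part from its own counts. Of 82 further genes named outside the rule 53 were called, and 37 of these kept direction and call in all alternatives. Depth limits the genes under a few CPM.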

Other observations

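Annotated pseudogenes, 978 of the genes tested, differed in balance from protein-coding genes: 5.73% were higher and 15.7% lower at 16.7 mM, against 26.1% and 23.1% of 15235 protein-coding genes.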
